A study of Mus musculus with 16 samples.

Results

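The genes described here encode subunits of the mitochondrial respiratory chain that are read from the nuclear genome. They were taken by symbol from a list of 46 genes, and all 46 were found among the 24420 features of each of the 2 deposited expression tables. By complex, 24 belong to complex I (the Ndufa, Ndufb, Ndufs and Ndufv genes), 4 to complex II (Sdha to Sdhd), 7 to complex III (the Uqcr genes and Cyc1) and 11 to complex IV (the Cox genes and Ndufa4). Ndufa4 carries a complex I name but its protein is a subunit of complex IV, where it is counted here. ATP synthase, the last of the 5 complexes, is not among the 46 and is described from a separate list of 17 subunit genes.

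RNA was read by 3′ tag sequencing, a method that takes about 1 fragment near the polyadenylated end of each transcript. The labels put every mouse on strain C57B6 and give the genotypes WT, Mfge8 KO and Cd36 KO, with no age, sex, diet, promoter or Cre line. The proteins removed are MFGE8, which cells secrete and which binds integrins, and CD36, a surface receptor for long-chain fatty acids. One table holds primary enterocytes, the absorptive cells of the gut lining, in 4 WT and 5 Mfge8 null libraries. The other holds small intestine in 4 WT and 3 Cd36 null libraries. Whether libraries came from separate mice is not stated, so p-values measure the spread between these libraries only, which may be technical. Levels are normalised read counts, which are reads divided by 1 size factor per library. Levels of different genes are set side by side without a length correction, on the assumption that each transcript gives about 1 tag. That assumption was not tested. The ratio of intestine to enterocyte level was lower for shorter transcripts, as described below. Rankings of genes by level and shares of complexes may therefore depend on transcript length.

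Complexes I and II pass electrons from NADH and succinate to ubiquinone, complex III passes them on to cytochrome c, and complex IV reduces oxygen. Complexes I, III and IV pump protons, and ATP synthase uses the resulting gradient to make ATP. The mitochondrial genome encodes part of complexes I, III, IV and ATP synthase, and the remaining subunits, among them all of complex II, are nuclear. Enterocytes are rich in mitochondria and use this pathway to power nutrient uptake and the packaging of dietary fat. The 13 mitochondrially encoded subunits were not analysed here.

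Enterocyte libraries held 1618369 to 2459812 reads and intestine libraries 850297 to 1000694. Enterocyte libraries of 1 genotype differed beyond sampling noise: over 16 pairs, chi-square divided by its degrees of freedom was 6.26 to 20.2. In the intestine table the 9 such pairs gave 0.987 to 1.117, close to sampling noise, although 5 of them had a p under 0.05 (lowest 2.41e-12). Each intestine genotype was therefore counted as 1 sample, and its differences carry no p. Mfge8 fell in null enterocytes (log2 change -1.87, SE 0.46, adjusted p = 0.0362 by limma with Benjamini-Hochberg adjustment), and Cd36 was at 111 to 116 in WT and 6.48 to 16.0 in null intestine. The Mfge8 difference rests on few reads, with 20, 11, 21 and 8 in WT and 4, 2, 2, 7 and 2 in null enterocytes. The deleted parts are not given, so residual tags do not show what transcript remained. Enterocyte markers were high in every library (summed level of 8 genes 46452 to 74209 in enterocytes and 22953 to 23682 in intestine). Because the tables were normalised separately and differ in read depth, these sums are not compared between them. In the tissue labelled as intestine, the 6 smooth muscle markers summed to only 2.07 to 9.95, the 4 neuron and glia markers to 0 to 1.81 and the 3 endothelium markers to 1.03 to 7.18. The 4 fibroblast markers were higher, at a sum of 19.2 to 33.3 in WT and 9.05 to 11.7 in null intestine.

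In enterocytes the respiratory chain genes differed little between WT and Mfge8 null libraries, and 1 of them, Ndufa4, fell. All 46 passed the filter on low values. By limma with Benjamini-Hochberg adjustment over all 9432 tested genes, 1 of the 46 was called (2.17%), against 3.21% of all tested genes. None of the 46 rose by limma, edgeR or DESeq2 (by limma 1.58% of all tested genes did), and only Ndufa4 fell (1.63% of all tested genes did). Ndufa4 was also the only one of the 46 with an unadjusted p under 0.05 by limma, against 15.9% of all tested genes. Positive and negative log2 changes were evenly split, 23 each. The median log2 change of the 46 was 0.01, and that of all tested genes was 0.00. The change was within 0.3 of 0 for 43 of 46 genes (93.5%), compared with 58.7% of all tested genes. The standard error of these log2 changes was 0.13 to 0.27, leaving out Sdhd, so changes of the size of 0.3 could not be told from 0 for most of them. Respiratory chain genes are also expressed more strongly than most: their median WT level was 798 normalised reads and that of all tested genes 44.6, and high levels carry less counting error.

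**Figure D1:**
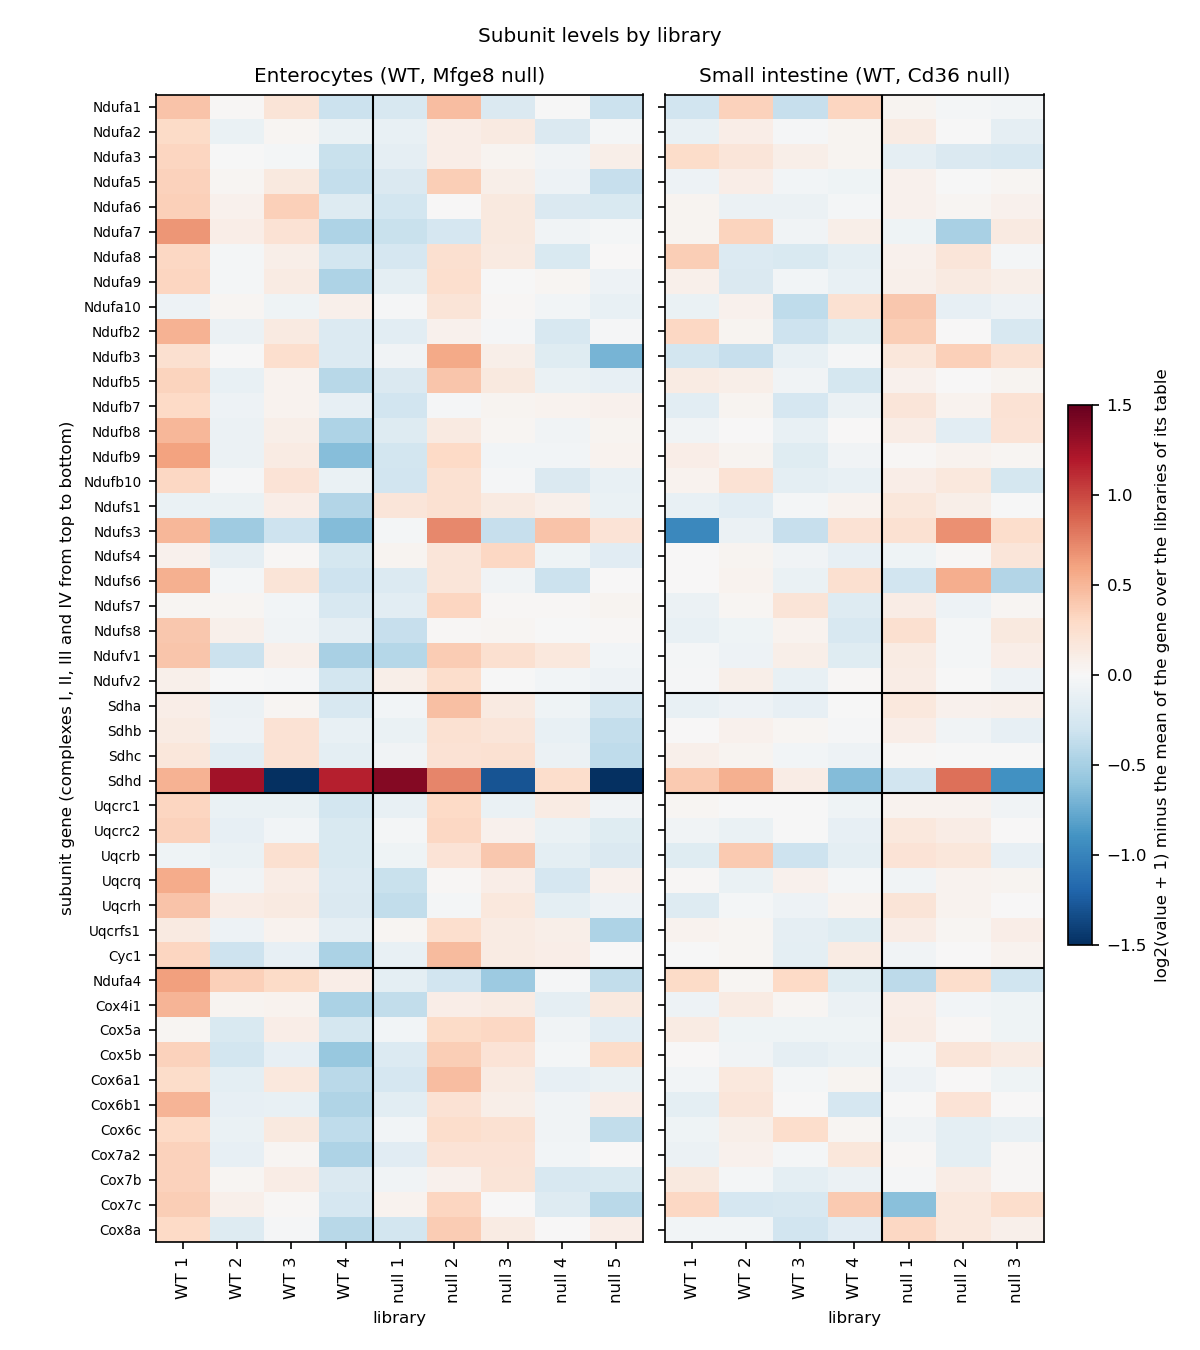
Level of each of the 46 subunit genes (rows, complexes I to IV from top to bottom) in each library (columns), as log2(value + 1) minus the mean of the gene over the libraries of its table; black lines separate complexes and genotypes, and the colour scale saturates at its ends. In enterocytes whole columns shift together, with WT 1 the highest library for 25 genes and WT 4 the lowest for 26, while the Sdhd row does not follow the other genes.

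Ndufa4 (chromosome 6, 11900292 to 11907497, minus strand, mm10) encodes a small accessory subunit of complex IV. Its level was 939.9, 781, 745 and 657 normalised reads in the 4 WT enterocyte libraries. In the 5 Mfge8 null libraries it was 553, 502, 417.5, 604 and 473. All 4 WT libraries lay above all 5 null libraries. The means were 781 ± 118 (SD, n = 4) and 510.02 ± 71.9 (SD, n = 5), a log2 change of -0.61 (SE 0.15, adjusted p = 0.0370 by limma). Among the 46 genes, Ndufa4 was also the only one whose groups did not overlap with null lower (2.17%, against 3.07% of all tested genes); none had null libraries all higher (3.35% of all tested genes).

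The fall of Ndufa4 kept its direction under 19 alternative settings, with log2 changes from -0.69 to -0.46, but 10 of them lost the call. It was lost without WT 1, 2 or 3 and without null 1, 2, 3 or 5 (adjusted p 0.0505 to 0.145 by limma), and it was also made by edgeR and DESeq2 on the recovered reads of all libraries (adjusted p = 0.0347 and 0.00545). Enterocyte libraries also differed in marker genes of gut region. Whether this reflects the region sampled or a change in the marker genes was not tested. A score of proximal minus ileal marker genes was 1.99, 0.57, 0.81 and -0.76 in the WT libraries and -0.61, 0.42, -1.43, 1.25 and -2.25 in the null libraries, and with that score as a covariate the log2 change was -0.46 (adjusted p = 0.173 by limma). Markers of T cells and intraepithelial lymphocytes (8 genes) summed to 1156 to 3398 in WT and 3162 to 7391 in null libraries, and 5 markers of B and plasma cells to 17.5 to 124 and 206 to 499. None of the T cell genes and 1 of 4 tested B and plasma cell genes passed limma, and Cd79a was at 0 throughout. Their part in the Ndufa4 difference was not tested. In bulk libraries, fewer cells that express a gene and less RNA per cell cannot be told apart. In the intestine table Ndufa4 was at 61.5, 51.6, 62.3 and 44.1 in WT and 38.0, 60.7 and 40.7 in Cd36 null libraries. Those groups overlapped, and the ratio of null to WT reads was 0.832 with a 95% exact counting interval of 0.669 to 1.03. As a share of the summed level of the subunit genes, Ndufa4 was 2.48-fold smaller in WT intestine than in WT enterocytes. It was 1 of 9 genes with a share at least 2-fold smaller there, a group described below with its transcript lengths.

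Sdhd (chromosome 9, 50596357 to 50603812, minus strand) stood apart in another way. It encodes the small membrane anchor subunit of succinate dehydrogenase that, with SDHC, holds the haem and binds ubiquinone. Its level in enterocytes was 195, 326, 27.4 and 307 in WT and 354, 227, 54.9, 164 and 39.4 in null libraries. WT 3, null 3 and null 5 were low and the other 6 libraries high, irrespective of genotype. The highest library was 12.9-fold above the lowest, whereas for the other 45 genes that ratio was 1.23 to 2.63 (median 1.69). Between genotypes the log2 change was -0.31 (SE 0.67, adjusted p = 0.882 by limma), and its sign turned in 6 alternative settings. Both high and low libraries rest on many reads, with 35 reads of Sdhd in WT 3 and 314 in WT 2.

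The same gene varied in the intestine libraries, which otherwise agreed almost to sampling noise. Sdhd was at 108.5, 119.8, 89.4 and 52.3 in WT and 67.9, 147.0 and 43.5 in Cd36 null libraries, a 3.38-fold range. Variation of the reads between libraries of 1 genotype, as chi-square divided by its degrees of freedom, was 19.2 for Sdhd against a median of 0.88 over 6687 genes. Only the ribosomal RNA precursor Rn45s was higher, at 38.1, and the nuclear RNA Malat1 came next, at 9.41. In enterocytes, where all genes vary more, the value for Sdhd was 122 and ranked 93 of 7865 genes. The gene next to it, Timm8b, starts beside its promoter on the opposite strand and encodes a small chaperone of protein import into the inner membrane. Timm8b stayed at 115 to 195 in enterocytes and 70.3 to 97.7 in intestine, without the low libraries of Sdhd. Timm8b and the comparison over all genes were chosen after the values were seen.

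**Figure D2:**
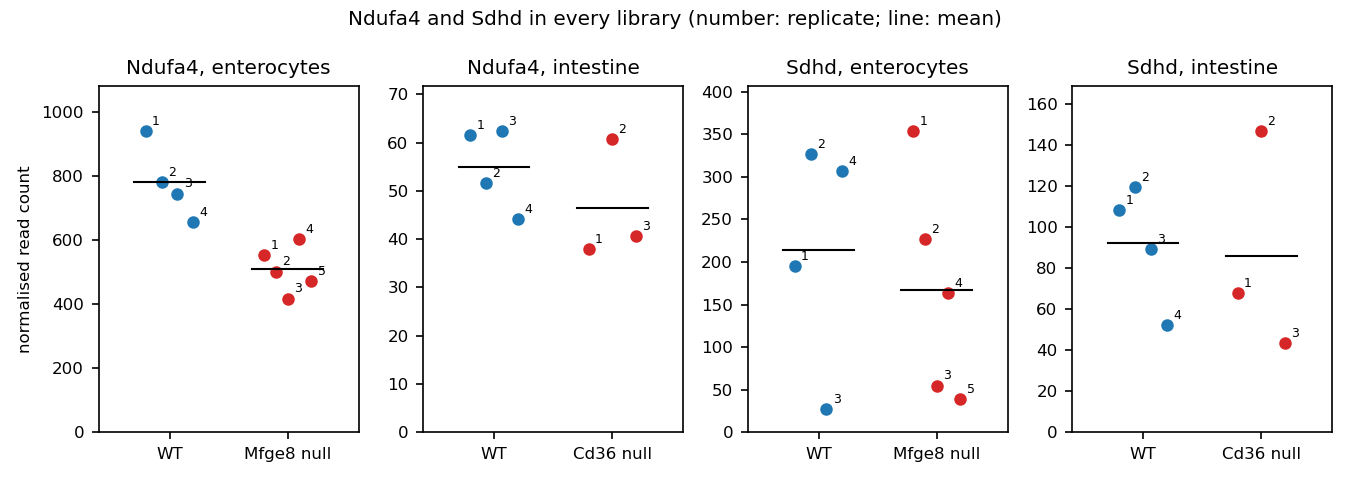
Normalised read counts of Ndufa4 (left pair) and Sdhd (right pair) in every library, with points numbered by replicate and a line at each group mean. Ndufa4 in enterocytes separates 4 WT libraries (657 to 939.9) from 5 null libraries (417.5 to 604), while Sdhd is scattered from 27.4 to 354 with low libraries in both genotypes.

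The stretches around the starts of 3 of the subunit genes differ in the motif matches that they hold. Nuclear respiratory factor 1 (NRF1), the ETS factor GABP, YY1 and oestrogen-related receptors (ERR) are known activators of many respiratory chain genes. RefSeq promoters (build GRCm38.p6, 250 bases before to 50 after the start) were found for 36 of the 46 genes, 38 promoters in all. Ndufa4 is shown because it was the gene called, Sdhd because it varied most, and Cox6a1, the liver-type regulatory subunit of complex IV, because it holds 2 NRF1 matches. Each is printed 5′ to 3′ on the gene's own strand, the minus strand in all 3 cases, with motif matches in capitals.

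Ndufa4, chr6:11907401-11907700: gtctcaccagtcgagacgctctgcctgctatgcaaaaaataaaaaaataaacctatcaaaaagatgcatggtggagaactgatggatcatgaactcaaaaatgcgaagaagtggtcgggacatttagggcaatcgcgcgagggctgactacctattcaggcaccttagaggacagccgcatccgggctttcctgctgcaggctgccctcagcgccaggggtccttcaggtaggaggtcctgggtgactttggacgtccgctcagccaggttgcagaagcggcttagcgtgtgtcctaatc

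Sdhd, chr9:50603800-50604099: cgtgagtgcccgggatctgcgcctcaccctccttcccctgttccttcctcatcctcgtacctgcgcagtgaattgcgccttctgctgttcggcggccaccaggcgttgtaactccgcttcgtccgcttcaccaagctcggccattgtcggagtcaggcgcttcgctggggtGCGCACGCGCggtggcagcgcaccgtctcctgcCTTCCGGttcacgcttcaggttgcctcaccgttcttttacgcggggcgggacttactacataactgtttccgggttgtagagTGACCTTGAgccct

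Cox6a1, chr5:115348909-115349208: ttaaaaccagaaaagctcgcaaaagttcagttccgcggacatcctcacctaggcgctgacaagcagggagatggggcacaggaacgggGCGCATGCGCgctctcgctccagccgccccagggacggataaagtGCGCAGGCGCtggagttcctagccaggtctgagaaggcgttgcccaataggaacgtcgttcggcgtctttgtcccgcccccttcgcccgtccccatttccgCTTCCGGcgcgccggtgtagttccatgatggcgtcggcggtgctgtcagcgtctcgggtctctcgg

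Both strands were searched for GCGC and TGCGC with any 1 base between them (NRF1), AAGATGGCG (YY1), CCGGAAG (ETS) and TCAAGGTCA (ERR), and no match of one overlapped a match of another in the 3 windows shown. The Ndufa4 window held none of these letters. The Sdhd window held 1 match each for NRF1, ETS and ERR, and it also covers the start of Timm8b. NRF1 matches lay in 23.7% of the 38 subunit promoters, 10.2% of 9360 promoters of genes tested in enterocytes and 4.60% of all 32851 promoters. The corresponding shares were 10.5%, 3.31% and 1.40% for YY1, 23.7%, 18.2% and 8.86% for ETS and 2.63% (Sdhd alone), 0.235% and 0.423% for ERR. The genes with an NRF1 match were Cox6a1, Ndufa5, Ndufa6, Ndufa8, Ndufs6, Sdha, Sdhd and Uqcrc1. None of these 8 was called in enterocytes, where 1 of all 46 genes and 3.21% of all tested genes were. A match describes these letters and is no evidence of binding.

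No complex I gene was called in enterocytes. Of the 24, 10 had positive and 14 negative log2 changes, with a median of -0.03. The most positive value belonged to Ndufs3, a core subunit of the arm that carries the iron-sulphur clusters. It was also the lowest of the 46 genes, at 58.5, 28.1, 32.9 and 25.8 in WT and 40.2, 68.0, 32.0, 55.7 and 47.6 in null libraries. Its groups overlapped (log2 change 0.44, SE 0.27, adjusted p = 0.453 by limma). The largest negative value belonged to Ndufa6, an accessory subunit of the LYR motif family with the highest WT mean of the complex I genes. In null libraries the mean of Ndufb8 (1628) was above that of Ndufa6 (1454). Ndufa6 was at 1998, 1628, 1996 and 1362 in WT and 1289.9, 1566, 1735, 1346 and 1332 in null libraries, again with overlap (log2 change -0.26, SE 0.16, adjusted p = 0.474 by limma).

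Split by role, the 6 core subunits (Ndufs1, Ndufs3, Ndufs7, Ndufs8, Ndufv1 and Ndufv2), which form the catalytic part with its flavin and iron-sulphur clusters, had 5 positive values and a median of 0.12. The 18 accessory subunits, which surround and stabilise that core, had 5 positive values and a median of -0.06. This split was made after the values were seen and was not tested. Ndufs1, the largest core subunit, did not pass the test, with 161, 161, 185 and 127 in WT and 196, 203, 189.8, 182 and 162 in null libraries (log2 change 0.24, SE 0.15, adjusted p = 0.469 by limma). Ndufa10 was the steadiest of the 46 genes, with 1.23-fold between its highest and lowest library.

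In complex II the catalytic flavoprotein Sdha was at 537 ± 54.8 (SD, n = 4) in WT and 576 ± 113 (SD, n = 5) in null enterocytes, a log2 change of 0.09. The iron-sulphur subunit Sdhb and the anchor Sdhc, the highest of the 4 at 1813 ± 252 and 1778 ± 299, had log2 changes of -0.07 and -0.03. Adjusted p-values by limma were 0.846, 0.879 and 0.954. With Sdhd, the median of the complex was -0.05, and 3 of 4 values were negative.

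Complex III had 5 positive and 2 negative values, with a median of 0.03 and no call among 7. Uqcrh, the hinge protein that helps cytochrome c1 pass electrons to cytochrome c, had the highest WT mean of the 46 genes. In null libraries the means of Cox6c (3097) and Cox5a (2908) were above that of Uqcrh (2826). Uqcrh was at 4004, 3223, 3282 and 2578 in WT and 2318, 2918, 3345, 2705 and 2845 in null libraries, with overlap (log2 change -0.20, SE 0.17, adjusted p = 0.611 by limma). Cyc1, which is cytochrome c1 itself, was the lowest of the complex, at 474 ± 121 and 562 ± 91.1, with the most positive change of the 7 (log2 0.26, SE 0.17, adjusted p = 0.497 by limma).

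Complex IV without Ndufa4 had 7 positive and 3 negative values and a median of 0.07. With Ndufa4 the median was 0.05. Cox6c, a small accessory subunit of the inner membrane, was the highest at 3075 ± 622 in WT and 3097 ± 533 in null enterocytes. Cox5b, a zinc-binding subunit on the matrix side, was the lowest in WT and had the most positive value. Its levels were 855, 557, 619 and 455 in WT and 584, 868, 775, 657 and 818 in null libraries, with overlap (log2 change 0.28, SE 0.18, adjusted p = 0.498 by limma). Of the complex IV genes, then, all but Ndufa4 overlapped between the genotypes.

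None of the 17 ATP synthase genes was called in enterocytes, and their median log2 change was 0.06, with 10 positive. Atp5g3, which encodes the same ring subunit c as Atp5g1 and Atp5g2, was the most abundant at 11082 ± 1656 in WT and 11305 ± 1940.2 in null libraries. Atp5g2 was the least abundant and had the most positive change (77.8 ± 36.0 and 84.1 ± 12.9, log2 0.21), and Atp5c1, the rotating gamma subunit, had the most negative (1105 ± 159 and 982 ± 102, log2 -0.17). Adjusted p-values by limma were 0.748 and 0.636.

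**Figure D3:**
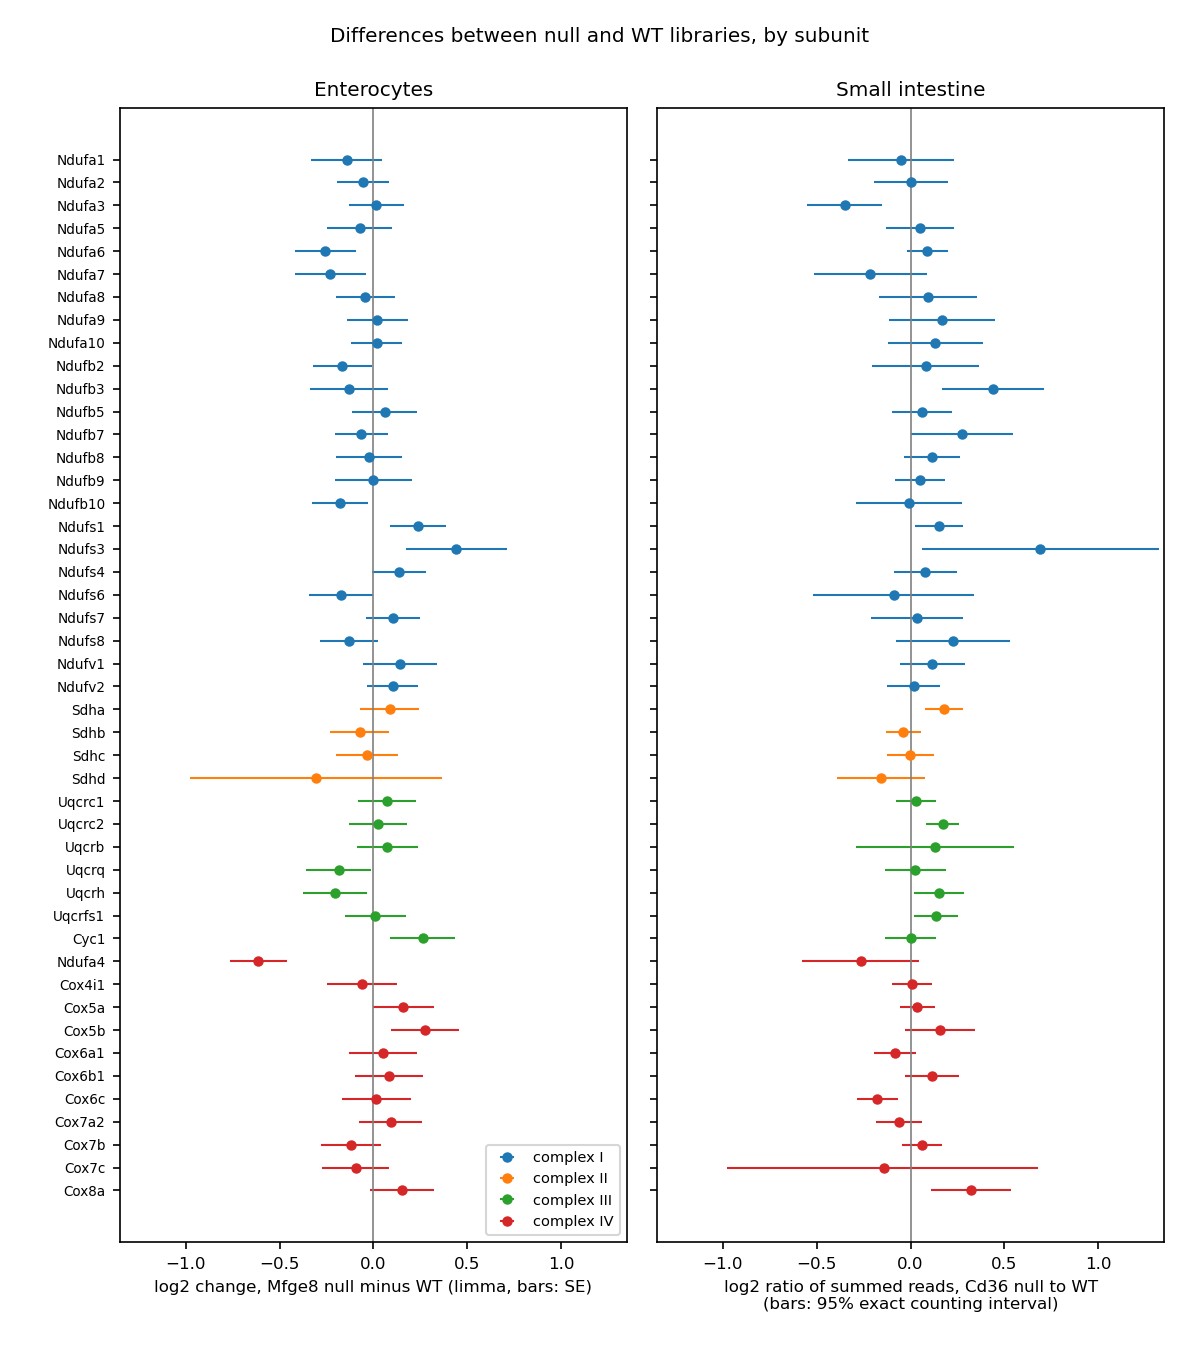
Difference between null and WT for each of the 46 subunit genes, coloured by complex: on the left the limma log2 change in enterocytes with its standard error (4 WT and 5 Mfge8 null libraries), on the right the log2 ratio of summed reads in intestine with its 95% exact counting interval (Cd36 null to WT, 1 sample per genotype). Ndufa4 at -0.61 is the gene farthest from 0 on the left, Sdhd has the widest bar there, and on the right most complex III genes lie above 0.

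Enterocyte libraries of 1 genotype differed in the total level of these genes. The 46 genes together made up 3.13, 2.49, 2.62 and 2.22% of the reads in the WT libraries and 2.35, 2.81, 2.53, 2.16 and 2.14% in the null libraries, with means of 2.61 ± 0.38 (SD, n = 4) and 2.40 ± 0.28 (SD, n = 5). WT 1 was the highest library for 25 of the 46 genes and null 2 for 16, and WT 4 was the lowest for 26. A count of genes above their own median over the 9 libraries gave 42, 11, 28 and 3 of 46 in the WT libraries and 7, 39, 32, 7 and 15 in the null libraries. WT 1 had the highest proximal score of the WT libraries and nearly all genes high. WT 4 had the lowest score of the WT libraries and nearly all genes low. Null 4 (score 1.25) and WT 2 (0.57) had few genes above the median, and null 3 (-1.43) had many. The order therefore did not hold across all libraries, and the part of gut region was not tested.

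The make-up by complex varied less than the total. Expressed as a share of the summed level of all 63 subunit genes, complex I took 16.8 to 18.1% in WT and 16.0 to 17.2% in null enterocytes, complex II 4.21 to 5.36% and 3.86 to 5.11%, and complex III 11.3 to 11.9% and 10.7 to 11.5%. Those ranges overlapped. Complex IV took 21.7 to 23.1% in WT and 22.3 to 22.9% in null, also overlapping. ATP synthase took 43.1 to 44.2% in WT and 44.3 to 45.1% in null enterocytes, without overlap. The ratio of complex IV to complex I was 1.28, 1.29, 1.26 and 1.29 in WT and 1.39, 1.33, 1.43, 1.33 and 1.32 in null libraries, and every null library was above every WT library. This was also so when Ndufa4 was counted with complex I (1.16 to 1.17 and 1.23 to 1.36) or left out (1.21 to 1.24 and 1.28 to 1.40). These ratios sum over the chosen genes and were picked out after the values were seen, so no p is given.

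**Figure D4:**
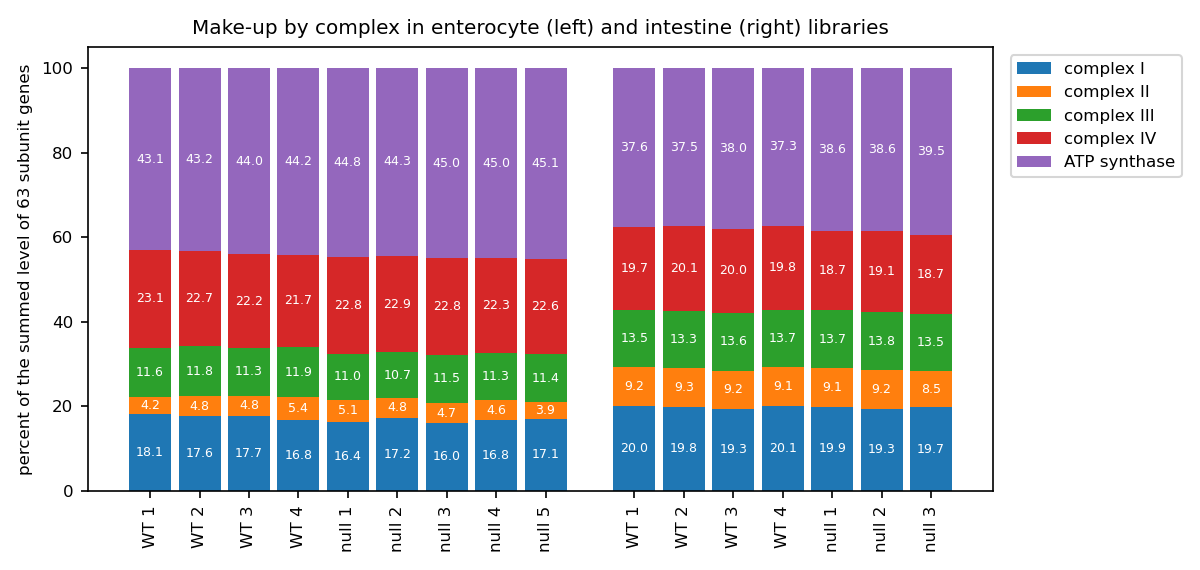
Share of each complex in the summed normalised level of 63 nuclear subunit genes (46 of complexes I to IV and 17 of ATP synthase), in percent, for each of the 9 enterocyte libraries (left) and 7 intestine libraries (right). ATP synthase takes 43.1 to 45.1% in enterocytes and 37.3 to 39.5% in intestine, and complex II takes 3.86 to 5.36% and 8.51 to 9.32%.

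In Cd36 null intestine the subunit genes again differed little from WT, and more of them were slightly higher than lower. Because each genotype is 1 sample, the values describe these preparations, and counting intervals cover counting error only. A log2 difference past 0.3 was reached by 4 of 46 genes (8.70%), 3 higher and 1 lower, against 28.7% of 9314 tested genes, 13.0% higher and 15.7% lower. The median WT intestine level was 158 for the 46 genes and 30.9 for all tested genes. High levels carry less counting error, so these shares are not compared at equal level. The difference was positive for 33 of 46 genes (71.7%), compared with 49.8% of all tested genes, with medians of 0.06 and 0.00. By complex the medians were 0.08 for I, -0.02 for II, 0.14 for III, 0.00 for IV and 0.14 for ATP synthase. All 7 complex III genes were positive and 12 of 14 tested ATP synthase genes were, while complex IV had 6 positive and 5 negative. Of the complex III genes, Cyc1 was at only 0.003, and its ratio of null to WT reads was 0.9998. For 35 of the 46 genes the counting interval of the ratio included 1, for 9 (19.6%) it lay above 1 and for 2 (4.35%) below. Of all tested genes it lay above 1 for 9.77% and below 1 for 8.43%, and it is narrower for genes with more reads.

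The 3 genes past 0.3 on the higher side were Ndufs3, Ndufb3 and Cox8a. Ndufs3 was at 5.76, 11.4, 9.35 and 14.4 in WT and 14.5, 20.2 and 14.8 in null libraries. This is a low gene with 40 and 51 reads in all, and the ratio was 1.61 with an interval of 1.04 to 2.50. Ndufb3, an accessory subunit of the membrane arm of complex I, was at 51.9, 49.6, 58.2 and 62.6 in WT and 71.5, 80.9 and 74.0 in null libraries (log2 difference 0.44, ratio 1.36, interval 1.12 to 1.64). Cox8a, a small membrane subunit of complex IV, was at 98.9, 99.1, 83.1 and 90.3 in WT and 127, 114 and 107 in null libraries (log2 difference 0.32, ratio 1.25, interval 1.08 to 1.45). The null libraries of all 3 lay above the WT libraries. In enterocytes the same genes had changes of 0.44, -0.13 and 0.15 with Mfge8 loss, and overlapped.

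Including these, the null libraries lay wholly above WT for 6 of 46 genes (13.0%), against 8.61% of all tested genes. The other 3 were Ndufb7, Sdha and Uqcrc2. Sdha, the catalytic subunit of complex II, was at 425, 436, 422 and 458 in WT and 511, 477 and 485 in null libraries (log2 difference 0.17, ratio 1.13, interval 1.05 to 1.21). Uqcrc2, a core protein of complex III, was at 555, 537, 573 and 528 in WT and 645, 625 and 581 in null libraries (log2 difference 0.17, ratio 1.13, interval 1.06 to 1.20). These are among the most abundant subunits in intestine, so their intervals are narrow although the differences are small.

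Ndufa3, an accessory subunit of the membrane arm of complex I, was the only gene past 0.3 on the lower side, and no gene was past it without WT 1. It was at 149.8, 140.4, 131 and 127 in WT and 112, 106 and 105 in Cd36 null libraries (log2 difference -0.34, ratio 0.785, interval 0.683 to 0.901). Its null libraries lay wholly below WT, as did those of 7.91% of all tested genes and of no other of the 46. The other gene with an interval below 1 was Cox6c (0.884, interval 0.819 to 0.953), whose libraries overlapped. Among ATP synthase genes, Atp5j2, the f subunit of the membrane part, was at 129, 129, 147 and 125 in WT and 91.4, 85.2 and 105 in null libraries, a log2 difference of -0.50, the most negative among the subunits. Usmg5, a small ATP synthase subunit also called DAPIT, had the most positive difference there, 0.29, with overlap. Complex IV took 19.7 to 20.1% of the summed subunit level in WT and 18.7 to 19.1% in null intestine, and ATP synthase 37.3 to 38.0% and 38.6 to 39.5%, both without overlap. Summed cell type markers also differed between the preparations without overlap for several lists: the 5 proliferation markers summed to 269 to 289 in WT and 195 to 218 in null, the ileal markers to 1017 to 1102 and 707 to 772, the proximal markers to 4457 to 4798 and 5175 to 5393, and the goblet cell markers to 4967 to 5206 and 6096 to 6283. Markers of T cells and intraepithelial lymphocytes summed to 704 to 923 in WT and 603 to 623 in null, Paneth cell markers to 460.1 to 483 and 386 to 417, and the fibroblast markers given above were also lower in null without overlap. Their part in these differences was not tested.

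The make-up of the chain differed between the WT groups of the 2 tables. In WT enterocytes Uqcrh, Cox6c, Cox5a and Cox7c led the 46 genes, and in WT intestine Sdhb, Uqcrc2, Cox5a and Sdha did. Cox7c, a small membrane subunit of complex IV, was at 2849, 2319.6, 2216 and 1844 in WT enterocytes and at 9.60, 6.20, 6.23 and 10.3 in WT intestine. It took 2.69% of the summed subunit level in the first and 0.05% in the second, 49.5-fold less. Uqcrb, the ubiquinone-binding protein of complex III, took 8.08-fold less, Ndufb3 4.35-fold less and Ndufa1 3.98-fold less. In the other direction Ndufs1 took 9.81-fold more in intestine (0.19 and 1.83%) and Sdha 4.64-fold more (0.63 and 2.93%). These genes were picked after their values were seen. Values are shares within a library, the tables were normalised separately, the RNA was extracted with different kits, and no test was made.

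Transcript length moved with this difference. The 9 genes whose share was at least 2-fold smaller in intestine had a median transcript length of 540 bases (419 to 2413), and the 12 whose share was at least 2-fold larger a median of 1591 bases (870.5 to 2900). Respiratory chain transcripts are short: the median of the 46 was 750 bases, and 45 of them were shorter than the median of 2714 bases over 8186 genes tested in both tables. Over all those genes the median log2 ratio of intestine to enterocyte level was -1.85 for transcripts below 600 bases (137 genes), -1.10 from 800 to 1200 bases (577 genes) and -0.08 from 4000 bases (2110 genes). These ratios carry no correction for read depth, and enterocyte libraries held more reads. A log2 ratio of 0 therefore does not mark an equal share of reads. The share of library reads on the 46 genes was 2.22 to 3.13% in WT enterocytes and 1.03 to 1.07% in WT intestine. The part of length in the difference was not tested, and tissue, extraction kit and table cannot be told apart. Levels and shares of different genes within a table carry no length correction, so their order may also depend on length.

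**Figure D5:**
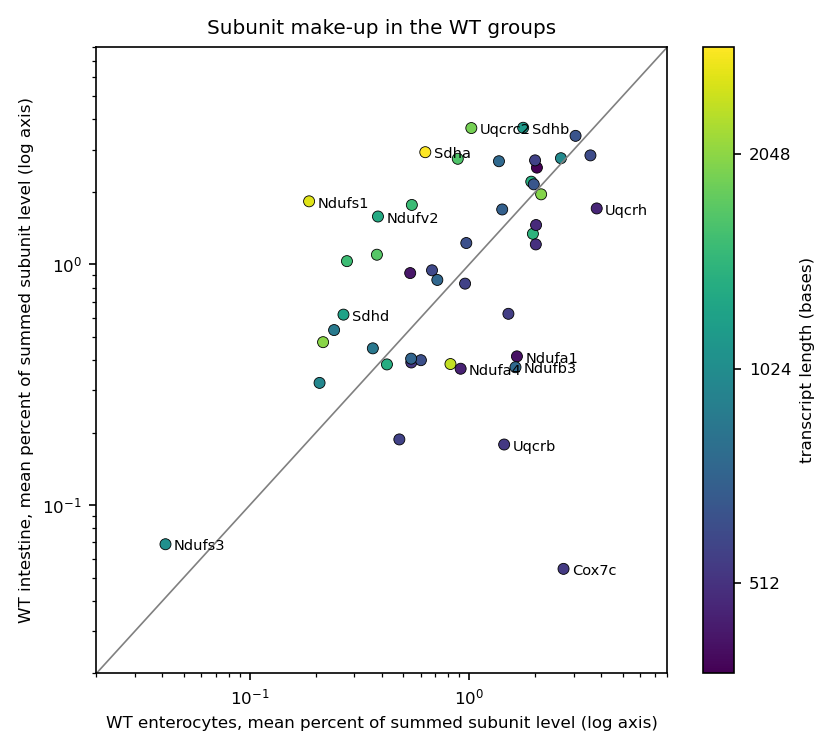
Mean share of each of the 46 genes in the summed subunit level in WT enterocytes (horizontal) and WT intestine (vertical), both on log axes in percent, coloured by transcript length in bases; the grey line marks equal shares. Short transcripts such as Cox7c (2.69 and 0.05%) and Uqcrb lie below the line, and long ones such as Ndufs1 (0.19 and 1.83%) and Sdha (0.63 and 2.93%) above it.

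Genes that work beside the respiratory chain were counted in lists of their own, and none of their members was called in enterocytes: 0 of 14 tested other subunits of complexes I, III and IV, 0 of 12 electron carriers and exchangers, 0 of 37 assembly factors, 0 of 17 genes of the tricarboxylic acid cycle and 0 of 13 regulators of mitochondrial biogenesis, against 3.21% of all tested genes. On the recovered reads edgeR called none of them, and DESeq2 called Cs and Vdac2, both higher in null. Their numbers at an unadjusted p under 0.05 by limma were 1, 2, 2, 2 and 1 in that order, against 15.9% of all tested genes, and their medians lay between -0.07 and 0.03. The 5 members with the lowest adjusted p, named after their values were seen, had higher means in null libraries but did not pass by limma. Cs, the citrate synthase that opens the cycle, was at 815, 893, 982 and 1017 in WT and 1255, 1389, 1497, 1298 and 1039 in null libraries, without overlap (log2 change 0.48, SE 0.15, adjusted p = 0.0945 by limma). Vdac2, an outer membrane channel for metabolites, was at 1995 ± 177 and 2685 ± 296, without overlap (adjusted p = 0.146 by limma). Idh2, the mitochondrial isocitrate dehydrogenase that yields NADPH, was at 80.1 ± 23.4 and 125 ± 25.2 (adjusted p = 0.120 by limma). Sco1, a copper chaperone for complex IV assembly, was at 99.4 ± 9.20 and 134.4 ± 15.2, without overlap (adjusted p = 0.152 by limma). Cycs, the cytochrome c that links complexes III and IV, was at 286 ± 47.6 and 396 ± 79.1 (adjusted p = 0.207 by limma).

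Of 8 isoforms known from other tissues or induced by low oxygen, 2 passed the filter on low values in enterocytes, Cox7a1 and Cox6b2. Cox4i2, Cox7b2, Cox8b and Cox8c had no read in any of the 16 libraries, and Cox6a2, the muscle form of Cox6a1, stayed at 0 to 3.0 normalised reads in enterocytes and at or below 1.06 in intestine. Ndufa4l2, the relative of Ndufa4 that is induced by low oxygen, had no read in 8 of 9 enterocyte libraries, and 1.10 normalised reads in the other. Cox7a1, described as the heart and muscle form, was at 1066 ± 419 in WT and 802 ± 136 in null enterocytes (log2 change -0.35, adjusted p = 0.467 by limma) and at 195 to 234 in intestine. Cox6b2, the testis form of Cox6b1, was low at 6.22 ± 4.70 and 7.16 ± 4.13 (log2 change 0.27, adjusted p = 0.873 by limma). Sco2, the relative of Sco1 with a like role, is listed at 0 in all 9 enterocyte libraries and was at 49.6 in WT and 89.5 in Cd36 null intestine, without overlap (ratio 1.80, interval 1.5 to 2.18). Sco2 was picked after its values were seen. Of 38 assembly factors tested in intestine, 9 were past 0.3 higher and 3 lower, against 13.0% and 15.7% of all tested genes. For 4 of the 38 the null libraries lay wholly above WT, against 8.61% of all tested genes.

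The position of the subunit genes relative to the targeted genes gives no grouping. The 46 genes lie on 17 chromosomes, and none lies within 10 Mb of Mfge8 or of Cd36. Of the 46, 20 overlap another annotated gene, 16 of them a gene on the opposite strand, among them Ndufs3 with Kbtbd4, Ndufa3 with Tfpt and Uqcrc2 with Pdzd9. The strand setting of the counting is not given in the sources used here, so reads of such pairs may not be told apart. Ndufa4, Sdhd, Ndufb3 and Cox8a overlap no annotated gene. Several subunit genes, Uqcrh among them, also have processed pseudogenes, and how reads that match a gene and its copy were counted is not given in the sources used here.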

How the data were processed

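RNA from enterocytes and small intestine was extracted with different column kits and sequenced from forward 3′ tag libraries with molecular identifiers, per the labels' protocols. The submitters' processing notes name build mm10 and, in no stated order, the aligner HISAT2 2.1.0, the read trimmer Trimmomatic 0.38.1, the counter HTSeq 0.91 and DESeq2 2.11.40. Their settings and the use of the identifiers are not given in the sources used here, so reads may not be independent molecules and intervals cover counting error only. The deposited signal was a normalised read count per gene, in 2 tables normalised separately. Within a library 100% of values were whole multiples of 1 step (tolerance 1e-06), which gave back whole reads. The size factors lay between 0.855 and 1.28 (enterocytes) and between 0.939 and 1.105 (intestine). The step is less certain for WT 4 and null 3 enterocytes.

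The members and lists were chosen with earlier results of these data known. Genes reaching 5 in at least the smaller group's number of libraries were fitted with limma 3.58.1 (R 4.3.3, trend, log2(value + 1), 2-sided, Benjamini-Hochberg over all tested genes, threshold 0.05), which was checked on simulated data. Log2 changes on that scale are understated for low genes. Intestine genotypes counted as 1 sample each, with a fold rule of 0.3 (log2) and 95% exact counting intervals of the ratio of summed reads. Alternatives used edgeR 4.0.16, DESeq2 1.42.0, other pseudocounts, filters and scaling, a replicate block and a regional score. On the recovered reads edgeR called 317 genes and DESeq2 430, against 303 with limma. Genes named by rule were those called, the extremes of each complex in level and difference, and those past the fold rule or without overlap. Other genes, among them Ndufs1, Uqcrb, Ndufa1, Idh2, Cycs and Sco2, were named outside this rule, some after their values were seen. Positions and lengths came from GENCODE M21. Replicate numbers did not pair the libraries (correlations of deviations -0.12 to 0.21). No sample or column was left out.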

Additional observations from a re-analysis of the deposited data

How the results depend on the processing

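Of 382 values of counts, medians and shares recomputed under the alternatives, 348 kept their direction and size class and 34 moved. With the replicate block, with the regional score as a covariate and with edgeR without WT 4 and null 3 (chosen after seeing the data), 0 of the 46 genes were called lower, and leaving out each library in turn gave 0 to 1. All genes called fell to 150 with the regional score and ranged from 140 (without WT 1) to 388 (without WT 4), with 173 without WT 2 and 185 without null 3. The numbers did not pair the libraries. The block gave Ndufa4 an adjusted p of 0.0897 by limma and moved the regulators' median to 0.073; leaving out a library gave -0.068 to 0.075.

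Sdhd turned to 0.10 with the block, 0.082 with the regional score, 0.06 without WT 2, 0.03 without WT 4, 0.10 without null 5 and 0.086 with edgeR without WT 4 and null 3, and leaving out a library gave -1.12 to 0.10. Atp5g2 turned to -0.022 with that edgeR fit and ranged from -0.031 (without WT 4) to 0.48, and Sdha from -0.015 (without null 2) to 0.17. In intestine, a rule of 0.2 gave 5 genes higher and 4 lower, the block 3 lower, and leaving out a library 2 to 4 higher and 0 to 4 lower; medians ranged from -0.057 to 0.091 (complex II) and 0.062 to 0.16 (complex III). With Ndufa4 in complex I, shares of I and IV were 18.4 and 21.5% in WT and 17.3 and 22.1% in null enterocytes, IV was 19.6% in WT intestine, and I and IV were 19.95 and 18.5% in null intestine. Why these values moved was not tested, beyond fewer libraries where one was left out. Depth limited Cox7c and Ndufs3 in intestine, with 32 and 40 WT reads.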
